A study of Mus musculus with 6 samples.

Results

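Iron storage and transport genes were followed in bone marrow-derived macrophages (BMDMs) that lack or keep the RNA-binding protein AUF1, the product of hnRNPD. The 9 genes were taken by symbol: Fth1, Ftl1, Tfrc, Slc40a1, Slc11a1, Slc11a2, Lcn2, Ireb2 and Aco1. The count table held 55254 gene symbols, of which 18430 had at least 1 read, and all 9 genes were among those. Each gene was represented by whichever of its transcripts had the most reads on average.

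The 3 control cultures had the genotype hnRNPDfl/fl and the 3 mutant cultures, named M-Δx3,4, had the genotype LysCre+hnRNPDfl/fl, both on the C57BL/6J strain. The loxP-flanked exons 3 and 4 of hnRNPD are cut out in the mutants by a Cre that is driven by the lysozyme M (Lyz2) promoter, which is active in macrophages and neutrophils, and the controls carry the flanked alleles without Cre. All cultures were differentiated for 10 days in medium conditioned by L929 cells, and all received LPS at 100 ng/ml for 4 hrs, so the effect of LPS itself cannot be read from these libraries. The comparison asks whether myeloid loss of AUF1 changed the amounts of iron-handling mRNAs in activated macrophages. The labels do not say whether the cultures came from separate mice, so the p-values measure the spread between these cultures only.

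Macrophages take up iron from transferrin and from the hemoglobin of aged red cells, keep it in ferritin and release it through ferroportin. The balance is set largely after transcription. Iron regulatory proteins (IRPs) bind a short hairpin, the iron-responsive element (IRE), when iron is scarce: an IRE in the 5′ UTR holds back translation, as in the ferritin mRNAs, and IREs in the 3′ UTR keep the transferrin receptor mRNA from decay. Macrophages exposed to LPS are known to hold iron back from microbes, with less ferroportin and more lipocalin 2, which binds bacterial siderophores.

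The hairpins of the 9 genes are shown because they mark which of these mRNAs the IRPs can bind. They were found by a search of the UTRs of GENCODE vM21 (mm10) for an unpaired C, 5 paired bases and a loop of the letters CAGTGN or CAGAGN, on the sense strand, in the printed 30 bases. Capitals mark the unpaired C and the 6 bases of the loop.

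Fth1, 5′ UTR, chr19:9982732-9982761, + strand: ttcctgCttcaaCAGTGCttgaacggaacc
Ftl1, 5′ UTR, chr7:45459778-45459807, - strand: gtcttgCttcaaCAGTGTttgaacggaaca
Slc40a1, 5′ UTR, chr1:45925464-45925493, - strand: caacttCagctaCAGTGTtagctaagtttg
Slc11a2, 3′ UTR, chr15:100395152-100395181, - strand: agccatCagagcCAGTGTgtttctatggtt
Tfrc, 3′ UTR, chr16:32631160-32631189, + strand: atttatCagtgaCAGAGTtcactataaata
Tfrc, 3′ UTR, chr16:32631219-32631248, + strand: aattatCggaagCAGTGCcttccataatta
Tfrc, 3′ UTR, chr16:32631598-32631627, + strand: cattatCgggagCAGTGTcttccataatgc
Tfrc, 3′ UTR, chr16:32631663-32631692, + strand: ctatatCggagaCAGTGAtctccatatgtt
Tfrc, 3′ UTR, chr16:32631710-32631739, + strand: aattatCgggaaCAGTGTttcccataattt

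A hairpin with the CAGTGN loop stood in the 5′ UTR of 0.0803% of 19937 genes and in the 3′ UTR of 0.237% of 20717 genes. The form of Slc11a2, with 1 further unpaired base in the stem, stood in the 3′ UTR of 0.589% of genes, and the CAGAGN form of the first Tfrc element in 0.304%. No match was found in the UTRs of Slc11a1, Lcn2, Ireb2 and Aco1. A match is a description of the letters and not a measured binding site.

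Reads were counted from the 3′ ends of the RNA, on the 3′ UTR of each transcript and the 249 bases after it. The counts summed over all transcripts came to between 5852374 and 9008878 per library, with reads shared by transcripts counted more than once. The counted Hnrnpd ends lie outside the deleted exons, so their level is no direct check of the deletion. The 3′ end of ENSMUST00000072750, which encodes the p37 isoform, was at 178, 104 and 69.6 normalized counts in control and 52.8, 12.6 and 16.0 in M-Δx3,4 (log2 fold change -2.11, SE 0.54), while the Hnrnpd transcript with the most reads did not pass the test (log2 fold change -0.57, SE 0.41). Lyz2, whose promoter drives Cre, had 1788 to 2201 normalized counts in control and 882 to 1342 in M-Δx3,4. Markers of macrophages summed to 5414 to 7072 normalized counts and those of the LPS response to 11845 to 13828, overlapping between the groups. Of 10 neutrophil markers 9 had reads, with sums of 403 to 753 that overlapped and Elane at 0, and of 10 erythroid markers 5 had reads, with sums of 0 to 37.1. The 7 B cell markers summed to 301 to 359 in control and to 143 to 165 in M-Δx3,4, with Igkc at 223 to 252 and at 59.2 to 95.5, and their part in the values of the iron genes was not tested. The 3 detected of 6 T cell markers summed to 45.2 to 55.8 in control and 25.4 to 42.7 in M-Δx3,4, with Cd3e, Cd3g and Trac at 0. Taken singly, none of the 3 separated the groups. Cd3d was at 5.8 to 37.2 in control and 10.8 to 24.3 in M-Δx3,4, and Cd4 at 17.4 to 39.4 and 14.7 to 21.4. Cd8a had 1 read, in control 1. In these bulk cultures, fewer cells of a type and less RNA per cell cannot be told apart.

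Control libraries 1 and 3 differed with the length of the region counted, and several iron genes also differed between them. The part of length in the values of the iron genes was not tested. Over 4723 genes with a mean of at least 50 normalized counts, the median of log2(control 1 / control 3) was -0.27 for the 1181 genes with the shortest regions and 0.68 for the 1180 with the longest. Tfrc, with 2707 bases counted, stood at 2.14 on this scale, Ireb2, with 3038 bases, at 1.67, and Slc11a2, with 1435 bases, at 1.42. Ftl1, with 729 bases, stood at -1.32 and Aco1, with 920 bases, at -1.47. These values lay beyond the medians of genes of like length, but the spread of single genes about those medians was not measured. Slc11a1, with 805 bases, stood at -0.01. The 5 genes differed more between these 2 controls than the groups differed in their means, and their group values are given below with the effect of leaving out single libraries.

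**Figure D1:**
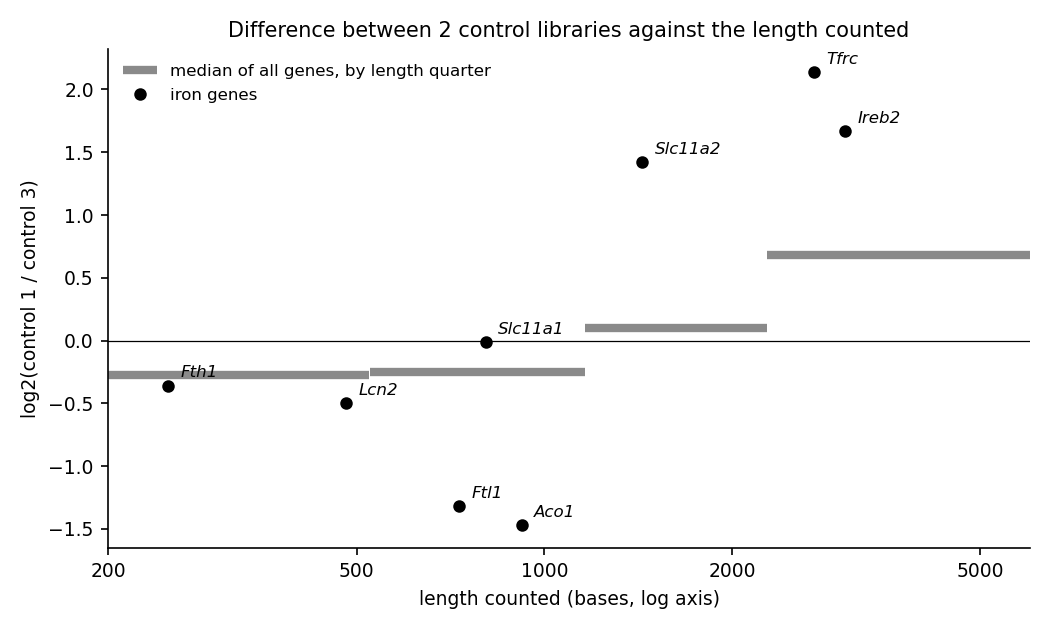
The log2 ratio of control library 1 to control library 3 (vertical axis) against the number of bases counted per gene (horizontal log axis). Points are the 8 iron genes tested and grey bars the medians of all genes in 4 classes of length, from -0.27 for the shortest to 0.68 for the longest; Tfrc, Ireb2 and Slc11a2 lie above the bars and Ftl1 and Aco1 below them.

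The levels of the 9 genes spanned more than 4 orders of magnitude. On the deposited TPM scale, which accounts for the length counted and the library total, the mean over the 6 libraries was 2294 for Fth1, the 19th highest of 18430 genes, and 637 for Ftl1, the 116th highest. Slc11a1 followed at 16.1 TPM, Lcn2 at 9.06, Slc11a2 at 7.22, Aco1 at 3.43, Ireb2 at 1.36, Tfrc at 0.726 and Slc40a1 at 0.0531. Neighbours in this order overlapped between libraries except in 3 places. Fth1, lowest at 2000 TPM, lay above Ftl1, highest at 1149 TPM. That gap depends on the division by the length counted, 249 bases for Fth1 and 729 for Ftl1. In normalized counts the ranges of these genes overlapped. Ftl1, at 12139.9, lay above Fth1, at 8648, in control 3, and Fth1 lay above Ftl1 in the other libraries. Ftl1, lowest at 479.5 TPM, lay above Slc11a1, highest at 20.01 TPM, and Tfrc, lowest at 0.247 TPM, lay above Slc40a1, highest at 0.139 TPM. The storage genes held the top of this order, and the transferrin receptor and the exporter ferroportin the bottom.

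No iron gene passed the threshold, which was an edgeR quasi-likelihood p below 0.05 before adjustment together with a log2 fold change of 1 or more in either direction. Of the 9 genes 8 were tested, and Slc40a1 fell under the filter on low counts. The same threshold was passed by 3.07% of 11873 genes, each read by its main transcript. None of the 8 had an unadjusted p under 0.05, against 3.98% of all genes, and DESeq2 and limma-voom also called none of them. None had control and M-Δx3,4 libraries that did not overlap, against 8.44% of all genes. After Benjamini-Hochberg adjustment, no gene of the whole table had an edgeR p under 0.05. The log2 fold changes of the 8 genes had a median of -0.31, with 3 above 0 and 5 below, and all 11873 genes had a median of -0.01. The median size of the difference, sign aside, was 0.47 for the 8 genes and 0.36 for all genes. Over the 62 transcripts of the 9 genes, 33 had a read, 30 were tested and none passed the threshold, which 3.3% of all 32475 transcripts tested did. Transcripts of a gene share reads, so they are not independent of each other.

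**Figure D2:**
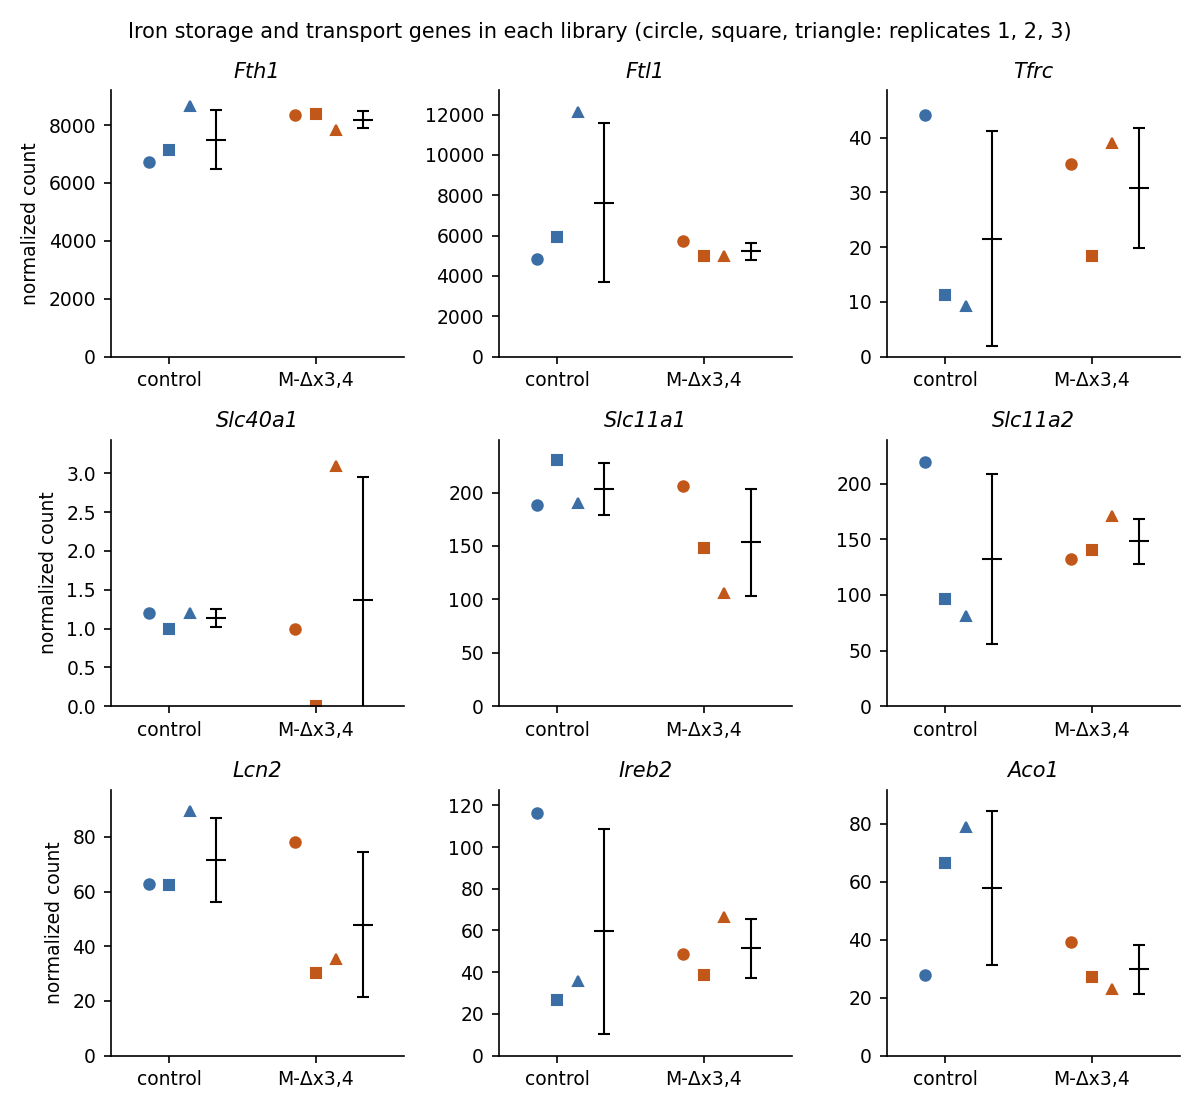
Normalized counts (vertical axes, each from 0) of the 9 genes in the 3 control (blue) and 3 M-Δx3,4 (orange) libraries, with the mean and SD of each group in black. Control 1 lies far above controls 2 and 3 for Tfrc, Slc11a2 and Ireb2, control 3 far above the others for Ftl1, and the groups overlap in every panel.

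Fth1 encodes the heavy chain of ferritin, the ferroxidase subunit that turns iron into the form that is stored. Its normalized counts were 6729.6, 7125 and 8648 in control and 8332, 8373 and 7841 in M-Δx3,4. The mutant values lay within the upper part of the control range and close to each other. The group means were 7501 ± 1013 and 8182 ± 296 (SD, n = 3), and the log2 fold change in edgeR was 0.13 (SE 0.27, 95% interval -0.45 to 0.70). The counted window of this transcript, ENSMUST00000235407, lies at chr19:9984816-9985064 and overlaps the 3′ UTR of the full-length mRNA, and 8 transcripts of the gene gave log2 fold changes from -0.14 to 0.29.

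Ftl1 encodes the light chain, which helps to form the mineral core of ferritin. It was at 4863, 5911.5 and 12139.9 normalized counts in control and at 5719, 4971 and 4969 in M-Δx3,4. Control 3 alone stood high, and the other 5 libraries lay close together. With means of 7638 ± 3934 and 5219.6 ± 433 (SD, n = 3), the edgeR log2 fold change was -0.55 (SE 0.34, 95% interval -1.28 to 0.18), and it was -0.03 without control 3 and -0.79 without control 1. All 6 Ftl1 transcripts gave values between -0.55 and -0.38. Its counted regions lie within chr7:45457696-45458675 on the - strand, and the transcript, ENSMUST00000210106, is annotated as a target of nonsense-mediated decay.

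Several other genes carry stretches of the Ftl1 sequence, and reads from such stretches can be hard to assign. Of the 919 stretches of 50 bases in its full-length mRNA, ENSMUST00000094434, 73.4% were also in Ftl1-ps1, 34.6% in Gm15590, 29.7% in Ftl2-ps and 13.6% in Ftl1-ps2. Ftl2-ps, a processed pseudogene, was at 4413, 10304 and 9910.1 normalized counts in control and at 6928, 7847 and 4370.5 in M-Δx3,4, a level like that of Ftl1 itself. Control 1 and M-Δx3,4 library 3 were the lowest pair in Ftl2-ps, and this was also so in Ftl1-ps1, Ftl1-ps2, Gm15590 and Gm12164. In Ftl1 the same 2 libraries were the lowest, but M-Δx3,4 library 2 was as low and control 3 stood alone at the top. In Ftl1-ps1, which is annotated as protein coding, the edgeR log2 fold change was -0.30, in Ftl1-ps2 -0.50 and in Ftl2-ps -0.36, and all lay within 2 standard errors of 0 (SE 0.35 to 0.43). Ftl1 and the 3 genes named Ftl1-ps1, Ftl2-ps and Ftl1-ps2 together came to 11468, 21787 and 27275 normalized counts in control and 16748, 16844 and 11523 in M-Δx3,4 (exact permutation test, two-sided, p = 0.5). The stretches cover the whole mRNA and not only the counted region. How reads from shared stretches were assigned is not known, so the values of Ftl1 are uncertain. Fth1 shared 4.0% of the stretches of one of its transcripts with Gm6977, and Fth-ps2 and Fth-ps3, both under 100 normalized counts in each library, overlapped between the groups. Fthl17 genes and the mitochondrial ferritin Ftmt had no read.

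**Figure D3:**
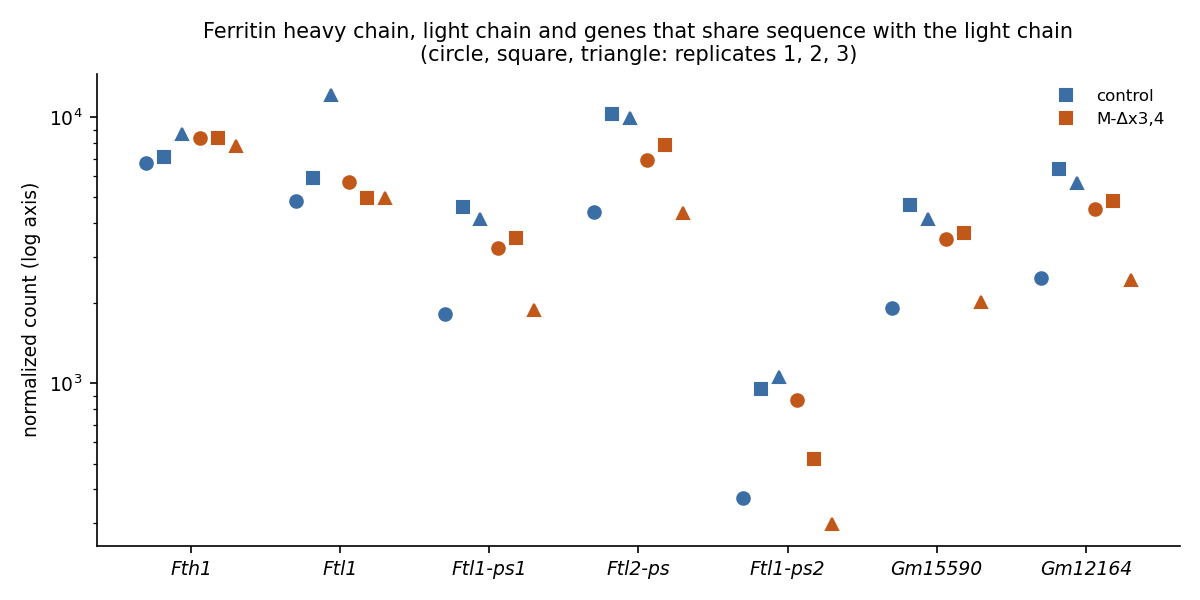
Normalized counts (vertical log axis) of Fth1, Ftl1 and 5 genes that share sequence with Ftl1 in each control (blue) and M-Δx3,4 (orange) library. Fth1 is nearly level, control 3 is the highest point of Ftl1 at 12139.9, and control 1 and M-Δx3,4 replicate 3 are the lowest points of each of the other 5 genes.

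Tfrc encodes transferrin receptor 1, which brings transferrin-bound iron into the cell. Its normalized counts were 44.2, 11.2 and 9.3 in control and 35.2, 18.4 and 39.0 in M-Δx3,4, from 8 to 51 reads. Control 1 was the highest of all libraries and controls 2 and 3 were the lowest. The edgeR log2 fold change was 0.53 (SE 0.57, 95% interval -0.70 to 1.75). Without control 1 it rose to 1.58 with an unadjusted edgeR p of 0.00828, so the call for this gene rested on whether that library was used. The counted region, at chr16:32630337-32633043, holds the 5 hairpins shown above.

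Slc40a1 encodes ferroportin, the iron exporter of macrophages, and was close to absent. It had 1 read in each control library and 1, 0 and 4 reads in the M-Δx3,4 libraries. A difference between the groups was not detectable at this depth. Its counted region lies at chr1:45907819-45909405 on the - strand.

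Slc11a1 (NRAMP1) encodes a metal transporter of the phagosome membrane that withdraws iron from engulfed microbes, and the C57BL/6 strain is known to carry an impaired allele. It was at 188, 231 and 190.3 normalized counts in control and at 206, 148 and 106 in M-Δx3,4. M-Δx3,4 libraries 2 and 3 lay below every control and library 1 lay among them. The edgeR log2 fold change was -0.41 (SE 0.35, 95% interval -1.15 to 0.34). It stayed below 0 when any one library was left out, between -0.68 and -0.20. The counted region is chr1:74385507-74386311.

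Slc11a2 (DMT1) encodes the transporter that moves iron out of endosomes. Its main transcript, ENSMUST00000023774 with a counted region at chr15:100387649-100389083, was at 219.7, 96 and 81.2 normalized counts in control and 132, 141 and 171 in M-Δx3,4. All 3 M-Δx3,4 libraries lay between control 1 and the other 2 controls. The edgeR log2 fold change was 0.16 (SE 0.40, 95% interval -0.70 to 1.02), and it was 0.74 without control 1.

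Slc11a2 has 2 kinds of 3′ end, with and without the hairpin, and the assay counts them apart. The end with the hairpin, ENSMUST00000138843 at chr15:100392314-100395212, had 64, 48 and 50 reads in control and 43, 64 and 63 reads in M-Δx3,4. The other ends, taken as without it, had 191, 101 and 86 reads in control and 144, 153 and 239 reads in M-Δx3,4. Those of transcripts with incomplete 3′ ends were not searched for the hairpin. Control 1 stood well above the other controls in the ends without the hairpin and less so in the end with it. The end with the hairpin made up 25.1%, 32.2% and 36.8% of Slc11a2 reads in control and 23.0%, 29.5% and 20.9% in M-Δx3,4. The means were 31.4% ± 5.89 and 24.5% ± 4.48 (SD, n = 3), the groups overlapped, and the difference of -6.9 percentage points gave p = 0.2 in the exact permutation test, two-sided, in which 3 cultures against 3 cannot go below 0.1. With only the 2 transcripts that have complete 3′ ends, a choice made after seeing the data, the difference was -8.0 percentage points with the same exact p.

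**Figure D4:**
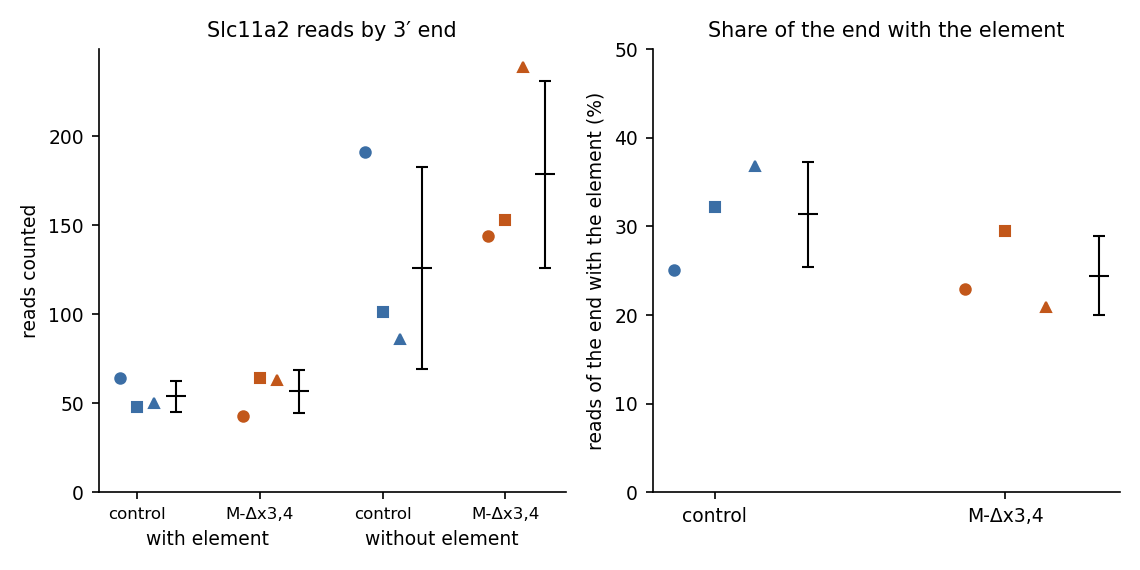
Left, reads of Slc11a2 (vertical axis) from the 3′ end with and the ends without the iron-responsive element in each control (blue) and M-Δx3,4 (orange) library; right, the share of reads from the end with the element in percent. Means and SD are in black; the shares run from 25.1% to 36.8% in control and from 20.9% to 29.5% in M-Δx3,4 and overlap.

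Lcn2 encodes lipocalin 2, a secreted protein of the response to bacteria. It was at 62.8, 62.3 and 89.3 normalized counts in control and at 78.3, 30.1 and 35.2 in M-Δx3,4. M-Δx3,4 libraries 2 and 3 were below all controls, and library 1 was within the control range. The edgeR log2 fold change was -0.58 (SE 0.44, 95% interval -1.51 to 0.35), and without M-Δx3,4 library 1 it was -1.13 with an unadjusted edgeR p of 0.0319. The 5 tested transcripts ranged from -1.09 to -0.25. Lcn2 is also made by neutrophils, whose marker sums overlapped between the groups, and the part of these cells in the Lcn2 values was not tested. The counted region lies at chr2:32384384-32384864 on the - strand.

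The IRPs themselves are encoded by Aco1 and Ireb2. Aco1 encodes IRP1, which is an aconitase when it carries an iron-sulfur cluster and an RNA-binding protein when it does not. It was at 27.9, 66.4 and 78.9 normalized counts in control and at 39.1, 27.2 and 22.9 in M-Δx3,4. Controls 2 and 3 lay above every M-Δx3,4 library, and control 1 lay between them. With means of 57.7 ± 26.6 and 29.7 ± 8.4 (SD, n = 3), the edgeR log2 fold change was -0.96 (SE 0.46, 95% interval -1.93 to 0.01), unadjusted p = 0.0531 and adjusted p = 0.984. This was the widest difference of the 8 genes and it did not pass the test. The log2 fold change of Aco1 was -1.29 without control 1 (edgeR unadjusted p = 0.00475) and -0.66 without control 3 (edgeR unadjusted p = 0.166). The counted region is chr4:40197668-40198587, and no other Aco1 transcript had a read.

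Ireb2 encodes IRP2, which is removed by the ubiquitin ligase subunit FBXL5 when iron is plentiful. Its normalized counts were 116, 26.6 and 36.0 in control and 48.9, 38.8 and 66.5 in M-Δx3,4. Control 1 was far above the rest, and controls 2 and 3 were the lowest libraries. The edgeR log2 fold change was -0.21 (SE 0.51, 95% interval -1.30 to 0.89) and turned to 0.73 without control 1. The counted region is chr9:54909742-54912779.

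**Figure D5:**
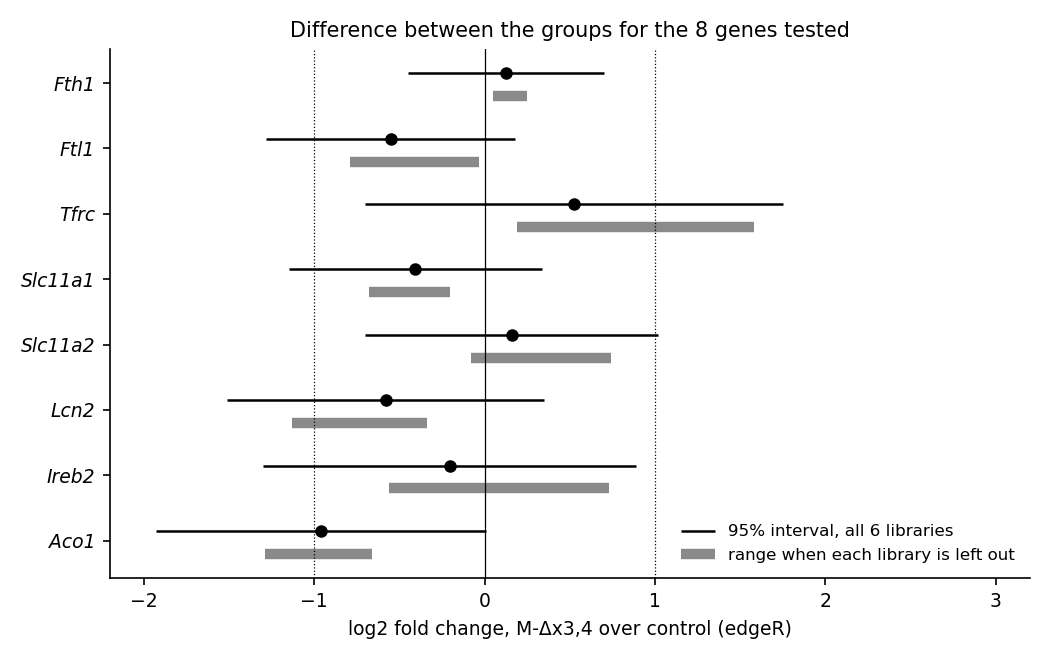
Log2 fold changes of M-Δx3,4 over control from edgeR (horizontal axis) for the 8 genes tested. Black points with lines are the values with their 95% intervals from all 6 libraries, grey bars the range when each library is left out in turn, and dotted lines mark -1 and 1. Each interval includes 0, and the grey bars of Slc11a2 and Ireb2 cross it.

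The genes were also read by where their hairpin lies. The ferritin genes, with the hairpin in the 5′ UTR, had log2 fold changes of 0.13 (Fth1) and -0.55 (Ftl1) by their main transcripts. The full-length ferritin mRNAs in which the hairpins were located had 0.18 (Fth1, ENSMUST00000025563) and -0.51 (Ftl1, ENSMUST00000094434). The mRNAs with hairpins in the 3′ UTR had 0.53 (Tfrc) and -0.25 (the Slc11a2 end that holds the hairpin). Those with none had 0.16 (the main Slc11a2 transcript), -0.41 (Slc11a1), -0.58 (Lcn2), -0.21 (Ireb2) and -0.96 (Aco1). None of these passed the test. An effect on translation would not be seen in counts of mRNA.

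AUF1 binds AU-rich sequences, so the annotated 3′ UTRs were searched on the sense strand for ATTTA and for the longer TATTTAT, which contains it. Only the longest annotated 3′ UTR of each gene was used. Tfrc held 5 ATTTA and 2 TATTTAT in 2458 bases, Slc40a1 held 2 and 1 in 1338 bases, Ireb2 held 4 and 0 in 2789 bases, and Slc11a2 held 3 and 0 in the 2650 bases of the 3′ UTR of ENSMUST00000138843, its end with the hairpin. Fth1, Ftl1, Slc11a1, Lcn2 and Aco1 held neither motif, in 156 to 671 bases. Among genes with a 3′ UTR within 20% of the same length, 93.6% to 95.3% held ATTTA for the lengths of Tfrc, Slc11a2 and Ireb2, 81.5% for that of Slc40a1 and 23.1% to 59.2% for those of the other 5. The 3 tested transcripts with ATTTA had log2 fold changes of 0.53 (Tfrc), -0.25 (the Slc11a2 end with the hairpin) and -0.21 (Ireb2), and the 5 genes without it had values of 0.13, -0.55, -0.41, -0.58 and -0.96. The main Slc11a2 transcript, with a log2 fold change of 0.16, was not searched and is in neither set. The 3′ UTRs with the motif were also the longest, so motif and length cannot be told apart here.

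The rest of iron handling was read from a list of 67 further genes, of which 56 were tested. Of these 35 had log2 fold changes above 0 and 21 below, with a median of 0.11, and 1 passed the threshold upward and 1 downward, as 1.1% and 1.96% of all genes did. Flvcr1, a heme and choline transporter, was higher in M-Δx3,4, at 11.6, 6.1 and 5.8 normalized counts in control and 11.7, 14.6 and 39.7 in M-Δx3,4. Its groups touched at control 1 and M-Δx3,4 library 1 without crossing, and the edgeR log2 fold change was 1.49 (SE 0.61). Hpx, which encodes the heme-binding plasma protein hemopexin, was called lower only through control 3, which held 16.2 normalized counts while the other 5 libraries were at 0. Without control 3, or without M-Δx3,4 library 3, no gene of the list passed.

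Of the 56 genes, 3 had their lowest M-Δx3,4 library above their highest control and none the reverse, and among all genes these shares were 4.19% and 4.25%. Besides Flvcr1 these were Cp and Skp1a, named after their values were seen. Cp encodes ceruloplasmin, the plasma ferroxidase, and had 248 to 398 normalized counts in control and 410 to 432 in M-Δx3,4 (edgeR log2 fold change 0.29, SE 0.32). Skp1a, a subunit of SCF ubiquitin ligases, had 25.5 to 51.1 in control and 53.4 to 85.6 in M-Δx3,4 (edgeR log2 fold change 0.79, SE 0.41).

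Hmox1 encodes heme oxygenase 1, which frees iron from heme, and was at 271, 469 and 265 normalized counts in control and at 231, 588 and 310 in M-Δx3,4. Library 2 was the highest of each group. Its edgeR log2 fold change was 0.17 (SE 0.39). The regulators of this gene, Nfe2l2 (NRF2) and Bach1, had values of 0.27 and 0.67 with SEs of 0.39 and 0.49. Ncoa4, the receptor that carries ferritin to the lysosome, had 0.35 (SE 0.54), Fbxl5 0.22 (SE 0.37), the iron chaperone Pcbp1 -0.02 (SE 0.28) and the metal importer Slc39a14 0.03 (SE 0.62). Of the 17 tested genes of mitochondrial iron, iron-sulfur clusters and heme synthesis, 13 were above 0 and 4 below, with a median of 0.13, and none passed the threshold.

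Across the 6 libraries the member genes followed different genes. Pearson's r of log2(normalized count + 1) is given as a description, over 6 libraries that differ in depth and in the length pattern above. Among 4723 genes, those most like Fth1 were Ccl4, Hras and Emc6 (r 0.963 to 0.976), and those most like Ftl1 were Uqcrc1, Snrpb and Rps2 (r 0.991 to 0.994). Slc11a1 was closest to Thap11, B4galt7 and Mark4 (r 0.965 to 0.992), Slc11a2 to Spred1, Mob4 and Srp54a (r 0.991 to 0.995), Lcn2 to Tsg101, Hk3 and Fam129b (r 0.962 to 0.976) and Ireb2 to Rlim, Clec4d and Plek (r 0.977 to 0.989). Between the members themselves, r was 0.89 for Slc11a2 and Ireb2, 0.77 for Slc11a1 and Lcn2, 0.50 for Fth1 and Ftl1 and -0.79 for Ftl1 and Slc11a2.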

How the data were processed

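QuantSeq 3′ mRNA-Seq libraries of 3 control and 3 M-Δx3,4 BMDM cultures were sequenced on an Ion Proton. Per the methods of the study, the authors mapped reads with TopHat2 2.1.1 and Bowtie2 to mm10 and deposited raw counts per 3′ UTR region. TPM values per transcript were also deposited by the authors and were used for levels only. Of their comparison table, 18 columns of per-sample values and the columns of fold changes and p-values were not used.

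The counts of the regions of a transcript were summed and 1 transcript was taken per gene, the one with the highest mean count. Counts summed over all transcripts, which share reads, ran from 5852374 to 9008878 per library. With 1 transcript per gene they ran from 2503125 to 3846215. This depth limits precision for genes under about 10 reads. Intervals cover the fitted spread only. In R 4.3.3, edgeR 4.0.16 (quasi-likelihood test, median-of-ratios normalization, no covariates) was fitted to the 32475 transcripts with more than 4.891 normalized counts in at least 1 library, with Benjamini-Hochberg adjustment over all of them. The fit was tested on simulated data. A gene was called at p below 0.05 before adjustment with a log2 fold change of 1 or more in either direction, the threshold of the study. Single values were compared by exact permutation in scipy 1.17.1. Replicate numbers did not mark a known pairing.

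The members, the wider list and the markers were chosen with earlier results of these data known. Genes named are the 9 members, checks of the labels, genes with ferritin-like symbols, list genes that passed the threshold, 7 list genes fixed by name, and the 3 genes closest to each member with a mean of at least 50 normalized counts by Pearson's r. Cp, Skp1a and the genes that share 50-base stretches with the ferritin mRNAs but not their symbols were named after their values were seen. Alternatives were TMM, library totals, DESeq2 1.42.0, limma-voom (limma 3.58.1), other filters, a replicate block and leaving out each library.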

Additional observations from a re-analysis of the deposited data

How the results depend on the processing

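For the 9 genes, the number past the threshold was 0 under TMM, library totals, DESeq2, limma-voom, both other filters and the replicate block. In the main fit it was also 0 with no minimum fold change. It was 1 with 1 transcript per gene in the fit, which called Aco1 (log2 fold change -1.01), and 0 to 2 when each library was left out: Tfrc and Aco1 without control 1, and Lcn2 and Aco1 without M-Δx3,4 library 1. For Aco1, edgeR gave an unadjusted p of 0.0424 with no filter and 0.0497 with at least 10 counts in every library. Its log2 fold change was -0.96 under both filters, which did not reach the minimum size of 1. For the wider list of 67 genes the number past the threshold was 2 in the main fit, 0 under limma-voom, 0 with at least 10 counts in every library and 0 with the replicate block. It was 5 with no filter, which tests 64 genes, and 0 to 7 when each library was left out, with 7 without control 1.

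Fth1, Ftl1, Tfrc, Slc11a1, Lcn2 and Aco1 kept their direction under each of the 14 alternatives that could be fitted to them. Ireb2 reversed to 0.08 under limma-voom, to 0.05 with the replicate block and to 0.73 without control 1, and Slc11a2 to -0.02 without control 2 and to -0.08 without control 3. Ranges without each library in turn were 0.05 to 0.25 for Fth1, -0.79 to -0.03 for Ftl1, 0.19 to 1.58 for Tfrc, -0.68 to -0.20 for Slc11a1, -0.08 to 0.74 for Slc11a2, -1.13 to -0.34 for Lcn2, -0.56 to 0.73 for Ireb2 and -1.29 to -0.66 for Aco1. The cause was not tested. Same-numbered cultures deviated together in 1 of 3 pairs (correlations -0.213, 0.537 and -0.309), and only the cultures numbered 2 correlated best with their own number. These correlations cannot settle whether the numbers pair the samples, since they come from deviations within only 3 libraries per group. The labels name no pairing. The replicate block changed no call of the 9 genes. Depth limits Slc40a1, with 0 to 4 reads per library, and Tfrc, with 8 to 51.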

Other observations

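The share of Fth1 reads at the far 3′ end was compared between the groups. From the annotated end of the full-length mRNA on, the Fth1 region held 72.0%, 77.2% and 73.6% of its reads in control and 80.9%, 82.0% and 77.6% in M-Δx3,4 (means 74.3% ± 2.66 and 80.2% ± 2.29, SD, n = 3). The groups did not overlap, with an exact permutation p of 0.1, two-sided, the smallest that 3 cultures against 3 can give. In Ftl1 the same share overlapped, at 49.4% to 70.1% in control and 54.9% to 68.3% in M-Δx3,4 (exact permutation p = 0.8). These shares were chosen after the values were seen.

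The ratio of Fth1 to Ftl1 normalized counts was 1.38, 1.21 and 0.71 in control and 1.46, 1.68 and 1.58 in M-Δx3,4, without overlap (exact permutation p = 0.1, two-sided). With Ftl1-ps1, Ftl2-ps and Ftl1-ps2 added to Ftl1, the ratio was 0.587, 0.327 and 0.317 in control and 0.497, 0.497 and 0.680 in M-Δx3,4 and the groups overlapped (exact permutation p = 0.3, two-sided). Both ratios were outside the comparisons planned beforehand.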
